A study of Homo sapiens with 2 samples.

Results

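The enzymes that make and remove the building blocks of DNA were followed in lung fibroblasts after knockdown of periostin. The 8 genes were TYMS, TK1, RRM1, RRM2, DUT, DTYMK, DCK and SAMHD1. They were chosen for their role in deoxynucleotide supply, with earlier results of these data known. They were measured by 10 probes among the 21743 genes that the array's probes could be given. MRC-5 is an established line of fetal human lung fibroblasts. The cells had received either control siRNA or periostin siRNA (10 nM, 48 h), and the RNA of each culture was put on 1 Agilent array in a single colour. The labels give no dose or time for the control siRNA. Each condition was thus 1 sample and 1 array, no difference below has a replicate check, and no test between the conditions was possible.

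Cells make deoxynucleotides along a de novo route and a salvage route. On the de novo route, ribonucleotide reductase, an enzyme of a large subunit (RRM1) and a small subunit (RRM2), turns ribonucleotides into deoxyribonucleotides. DUT strips phosphates from dUTP to give dUMP, TYMS methylates dUMP to dTMP with a folate as donor, and DTYMK adds the next phosphate to dTMP. On the salvage route, TK1 phosphorylates thymidine and DCK phosphorylates deoxycytidine and purine deoxynucleosides. SAMHD1 works against all of them by cleaving deoxynucleoside triphosphates, and it is known as an antiviral factor. RRM2, TK1 and TYMS are well known for a rise of their transcripts when cycling cells enter S phase, whereas RRM2B, the other small subunit, serves cells outside S phase.

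The RefSeq promoter table held 13 windows for the 8 genes, each running from 250 bases before to 50 bases after an annotated start site on GRCh38.p14. They were searched for the letters of 3 elements that are known from cell cycle promoters and of 1 interferon element. Some of the matches of RRM2, TK1, TYMS, DUT and DTYMK are shown because RRM2, TK1 and DTYMK had the lowest ratios among the members and TYMS the highest, and DUT acts just before TYMS. The CCAAT box, bound by NF-Y, is the letters CCAAT on either strand. It was found in 6 of the 13 windows (46.2%), which belong to 5 members, and in 34.6% of all 35116 promoter windows. RRM2 held 3 boxes in the window of 1 start site and 1 in that of another, and 3 or more boxes were found in 3.26% of all windows. TK1, DTYMK and SAMHD1 each held 2 boxes in 1 window, and 2 or more were found in 10.8% of all windows. Of these boxes, 3 of RRM2, both of TK1 and the farther one of DTYMK are printed. The capitals below mark the box, which reads ATTGG where it lies on the strand opposite to the gene, and each line is read in the direction of the gene.

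RRM2, chr2:10122606-10122630, plus strand: caaggcgcagCCAATgggaagggtc
RRM2, chr2:10122636-10122660, plus strand: catggcacagCCAATgggaagggcc
RRM2, chr2:10122663-10122687, plus strand: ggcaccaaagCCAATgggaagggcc
TK1, chr17:78187115-78187139, minus strand: ccgggcgctgATTGGccccatggcg
TK1, chr17:78187084-78187108, minus strand: ccggctcgtgATTGGccagcacgcc
DTYMK, chr2:241686893-241686917, minus strand: ccggccccggCCAATcccttcgaat

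The first bases of the 3 boxes of RRM2 shown lay 123, 93 and 66 bases before the start site, and those of TK1 lay 77 and 46 bases before it. These boxes of RRM2 were each followed by the same letters, gggaaggg. The E2F element was searched as TTTGGCGC, TTTCGCGC, TTTCCCGC, TTTGGCGG, TTTCCCGG and TTTCGCGG on both strands, and at least 1 of these was found in 4 of the 13 windows (30.8%), of 4 members, and in 5.15% of all windows. The capitals below mark it, and the match of DCK is not printed.

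TYMS, chr18:657604-657631, plus strand: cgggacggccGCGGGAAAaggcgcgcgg
DUT, chr15:48332145-48332172, plus strand: ggcggggctgGCGGGAAAtttcggtttt
DUT, chr15:48332160-48332187, plus strand: aaatttcggtTTTGGCGCgctccctgcg
DTYMK, chr2:241686865-241686892, minus strand: ttggccgaggCCGGGAAAtactagctaa

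The windows of RRM2, TK1, RRM1 and SAMHD1 did not hold these E2F letters, and those of TYMS, DUT and DCK did not hold a CCAAT box, while DTYMK held both. The cell cycle homology region, searched as TTTGAA or as TTCGAA, was found in 3 of the 13 windows (23.1%), of RRM1, DUT and DTYMK, and in 16.4% of all windows. The interferon element, searched as GAAANNGAA, was found in none of the 13 windows and in 8.11% of all windows. A match is a description of the letters, and binding of a factor was not measured.

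**Figure D1:**
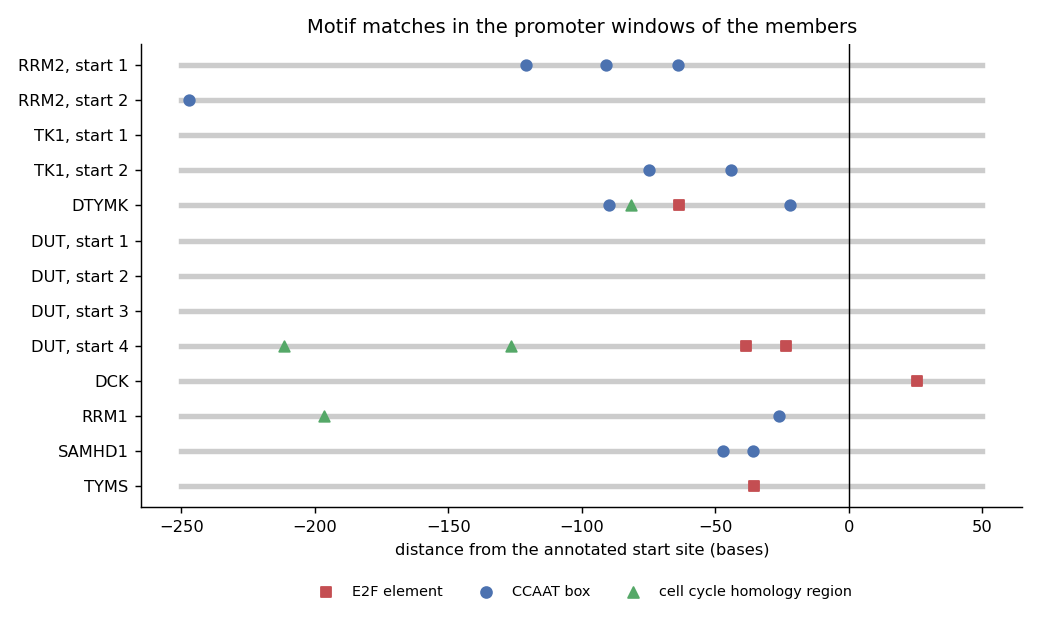
Matches of the searched letters in the 13 promoter windows of the members, with the distance from the annotated start site in bases on the horizontal axis and 1 row per window, ordered by the array ratio of the gene from RRM2 at the top to TYMS at the bottom. Blue circles are CCAAT boxes, red squares E2F elements and green triangles cell cycle homology regions. RRM2, TK1, RRM1 and SAMHD1 show CCAAT boxes and no E2F square, and TYMS and DCK show a single square.

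The probes of the array carry the signal as a fluorescence intensity, here scaled so that both arrays have the same 75th percentile, and signals are compared between the arrays and not between probes. By the scanner program's own flag, 58.0% and 58.9% of the spots were well above background, and all 10 member probes were so on both arrays without an outlier flag. POSTN, the targeted gene, gave 2638 with control siRNA and 279.8 after its knockdown. Its log2 ratio, periostin siRNA over control siRNA as for all ratios below, was -3.24 ± 0.20. The error after each ratio of a probe printed once is the one that the scanner program propagates for the spot on both arrays. It was 0.20 alike for TYMS, TK1, RRM1, DTYMK and the brighter DUT probe, and it is not a spread measured between spots. The propagated error also does not cover the difference between cultures. For comparison, 667 probes printed 10 times gave a pooled SD of 0.12 between spots for the log2 ratio. Of the fibroblast markers 10 of 10 were well above background on both arrays, with a summed signal of 370892 and 328983. Of the epithelial markers 5 of 7 were, with summed signals of 4038 and 6079, and CDH1 and NKX2-1 were below background on both. KRT18 alone held 3048 and 4264 of these sums. The log2 ratios of the 5 ran from 0.48 for KRT18 to 1.97 for EPCAM (34.6 and 135), with a median of 0.77. Of the 4 endothelial markers 3 were above background with control siRNA and 2 after knockdown, with summed signals of 133 and 130.2, and PECAM1 was below it on both. Of the 8 immune markers the numbers were 3 and 5, with summed signals of 1849.8 and 3056, and LAPTM5, HLA-DRA and MS4A1 were below background on both. The part of other cell types in the values of the members was not tested.

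Knockdown of periostin was accompanied by a lower signal for RRM2 and TK1, by smaller differences for DTYMK, DUT, RRM1 and DCK, and by no lower signal for TYMS. Of the 8 members, 2 were lower by more than 3-fold, against 2.75% of the 16052 measured genes, and the same 2 were the ones lower by more than 2-fold, against 6.42% of all genes. No member was higher by more than 2-fold or by more than 3-fold, against 7.97% and 3.37% of all genes. The median log2 ratio of the members was -0.37, and that of all measured genes was 0.06. The array reads RNA of the whole culture, so fewer cells in a phase of the cycle and less RNA per cell cannot be told apart.

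**Figure D2:**
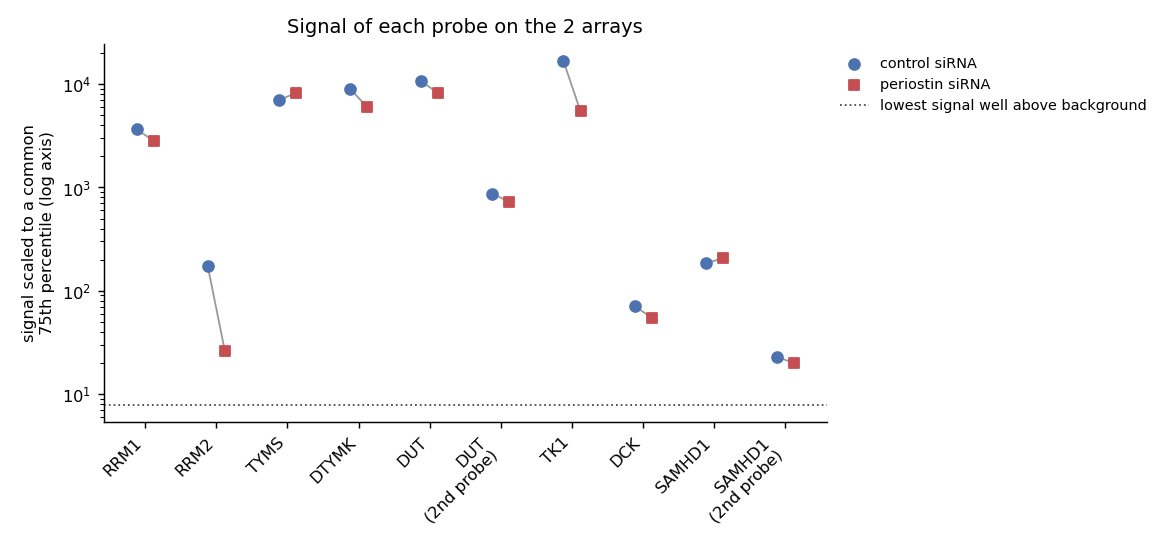
Scaled signal of each of the 10 member probes on a log axis, with blue circles for control siRNA and red squares for periostin siRNA (1 array each), and the dotted line at the dimmest spot well above background. RRM2 lies at 173 and 26.2 and TK1 at 16754 and 5452, whereas TYMS and the brighter SAMHD1 probe lie slightly higher with periostin siRNA.

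The subunits of ribonucleotide reductase differed in their ratios. RRM2, the small subunit, gave 173 with control siRNA and 26.2 after knockdown by its only probe (A_24_P225616). The log2 ratio was -2.72 ± 0.22, so that 15.2% of the control signal was left. Only 128 of the 16052 measured genes had a ratio as low or lower. The signal with periostin siRNA was 3.37 times the dimmest spot still well above background there. The size of the ratio depended on the setting. With normexp, a model-based background correction, the ratio was -1.57, a 2.97-fold lower signal. Normexp also adds a constant to every signal, which shrinks the ratios of dim probes. Among genes with a mean signal from 41.9 to 205, which holds that of RRM2, 4.52% were lower by more than 3-fold. RefSeq lists 3 pseudogenes named after RRM2, and whether the probe also reads their RNA was not tested.

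RRM1, the large subunit that holds the catalytic site, gave 3663 and 2833, a log2 ratio of -0.37 ± 0.20. The ratio of RRM2 was 2.35 lower than that of RRM1 on the log2 scale, with a propagated error of 0.30. With the normexp correction the gap was smaller, with RRM2 at -1.57 and RRM1 at -0.36. RRM2B, the small subunit known as a p53 target, gave 523 and 522 and a log2 ratio of -0.0036, a sign that turned with the normexp correction and without scaling, and its dimmer probe gave -0.19. RRM2 thus lay apart from both RRM1 and RRM2B by more than the spot error, in 1 pair of arrays.

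The enzymes on the way to dTTP did not share 1 direction. TYMS, the only enzyme that makes dTMP de novo, gave 6985 and 8288 and a log2 ratio of 0.25 ± 0.20. Over the 12 other settings its ratio ran from 0.12 with scaling on the median to 0.29 without scaling. TYMS had 1 probe, printed once, so settings that change the choice of probes or spots could not move it. The other settings reuse the same spots, so the shared sign is no separate check. Of all genes, 64.7% had a ratio as low or lower. The difference for TYMS was close to its propagated error, while probes of like brightness printed 10 times had an SD of 0.05 between spots. Neither covers the difference between cultures. RefSeq places ENOSF1 and TYMSOS over the gene, and neither had a ratio here.

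DTYMK, the thymidylate kinase that both routes need, gave 9049 and 6026 and a log2 ratio of -0.59 ± 0.20. DUT, which keeps uracil out of DNA, gave 10667 and 8213 by its brighter probe (A_23_P88484), a log2 ratio of -0.38 ± 0.20. Its dimmer probe (A_24_P160874) gave 870.2 and 727, a log2 ratio of -0.26 ± 0.20. The 2 probes of DUT differed by 0.12, which is less than the propagated error of that difference, 0.29. RefSeq lists 8 pseudogenes named after DUT and places DUT-AS1 over the gene, which had no ratio here.

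TK1, the thymidine kinase of S phase, had a lower ratio than the members TYMS, DUT and DTYMK. Its signal was 16754 with control siRNA and 5452 after knockdown, and 32.5% of the control signal was left. The log2 ratio was -1.62 ± 0.20, which is 3.07-fold and thus just past the 3-fold mark. Without scaling it was 2.98-fold. TK1 was bright, at 702 times the dimmest spot well above background after knockdown, and the normexp correction gave -1.65. Among genes with a mean signal of 2286 or more, which holds that of TK1, 1.21% were lower by more than 3-fold. The ratio of TK1 was 1.87 lower than that of TYMS on the log2 scale, with a propagated error of 0.29. TK2, the thymidine kinase of mitochondria, gave 243 and 415 and a log2 ratio of 0.77 ± 0.20, and the ratio of TK1 was 2.39 lower.

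DCK, the deoxycytidine kinase, was dim, with 70.9 and 54.8, and gave a log2 ratio of -0.37 ± 0.21, which was -0.15 with the normexp correction. At that brightness, probes printed 10 times had an SD of 0.22 between spots, so the difference for DCK was under 2 SD. For SAMHD1 the 2 probes gave opposite signs. The brighter probe (A_33_P3406281) had 184 and 207 and a log2 ratio of 0.17 ± 0.20, and the dimmer probe (A_24_P267592) had 22.9 and 19.8 and a log2 ratio of -0.21 ± 0.26. They differed by 0.38 with a propagated error of 0.33, and the mean over both probes was -0.02. No direction can be given for SAMHD1. SAMHD1 is known as an interferon-induced gene in several cell types. A list of 12 interferon response genes, chosen with earlier results of these data known, had a median ratio of 1.70. The ratios lay between 0.45 for MX2 and 4.23 for IFI44L (2.43 with the normexp correction). Of the interferon genes, OAS1 was well above background only after knockdown, so its ratio was a lower bound. Of the 8 immune markers 5 had a ratio, with a median of 0.51 and CD14 the highest at 0.94. Among them CD74 and CD3E were well above background only after knockdown, so their ratios were lower bounds as well. The part of these genes in the values of SAMHD1 was not tested.

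**Figure D3:**
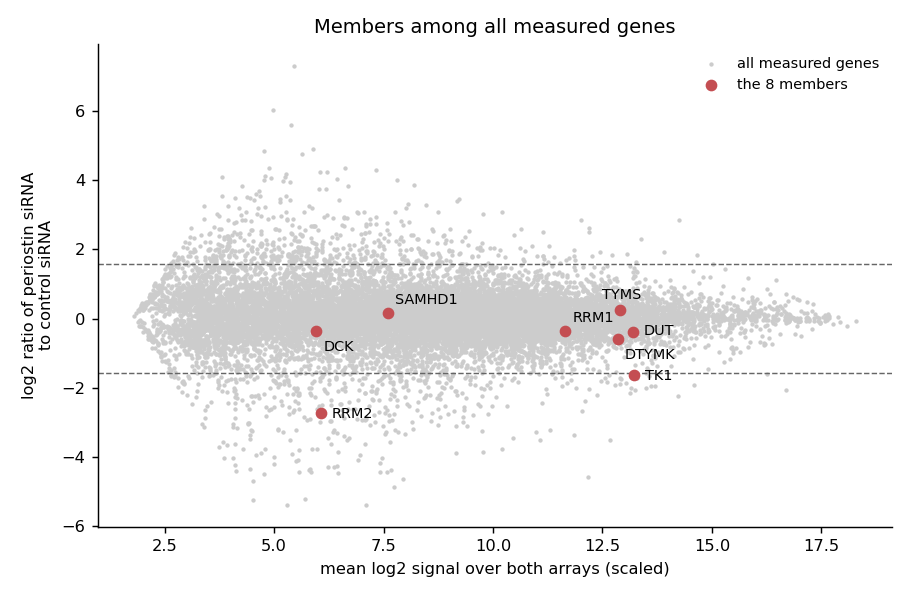
Log2 ratio, periostin siRNA over control siRNA, against the mean log2 signal of both arrays, with 1 grey point for each of the 16052 measured genes, red points for the members and dashed lines at 3-fold. RRM2, at -2.72, and TK1, at -1.62, lie below the lower line, RRM2 among dim genes and TK1 among bright genes, where the grey cloud is narrower.

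Ordered by their ratio the members ran RRM2, TK1, DTYMK, DUT, DCK, RRM1, SAMHD1 and TYMS. The gap between RRM2 and TK1 was 1.10 with a propagated error of 0.30, and the gap between TK1 and DTYMK was 1.03 with an error of 0.29. DTYMK, DUT, DCK and RRM1 followed each other at gaps of 0.21, 0.0060 and 0.0006. All were below their propagated errors of 0.29, so by that error these 4 cannot be ranked. By the SD between spots of probes of like brightness, the gap of DTYMK and DUT was above its SD of 0.07. The next gaps were below theirs, 0.22 and 0.23. RRM1 and SAMHD1 were 0.54 apart with an error of 0.29, but the dimmer SAMHD1 probe lay within that gap. SAMHD1 and TYMS were 0.08 apart. With the normexp correction, whose added constant shrinks the ratios of dim probes such as that of RRM2, TK1, at -1.65, came before RRM2, at -1.57. The order of these 2 thus differed between settings, and the part of the added constant was not tested. SAMHD1 cannot be placed, since its dimmer probe lay within the spot error of RRM1.

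**Figure D4:**
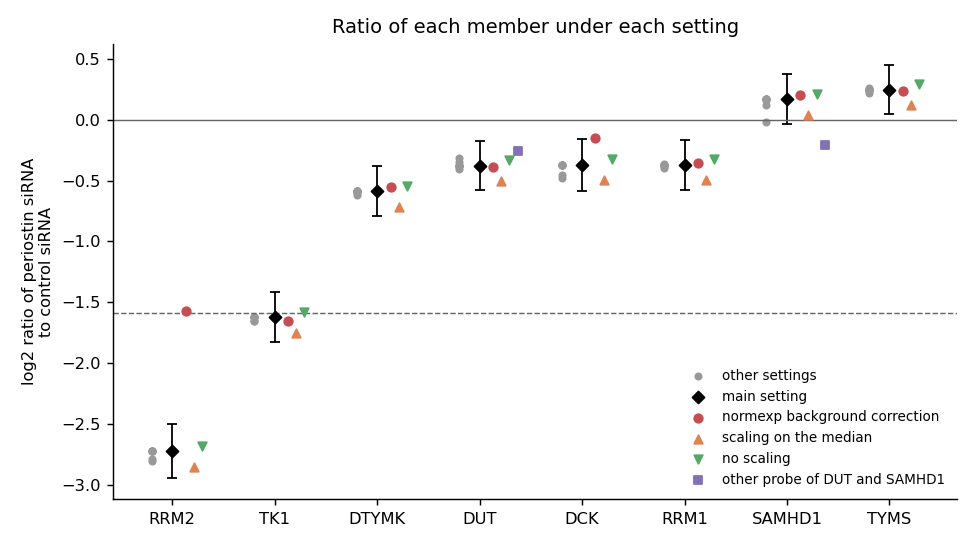
Log2 ratio of each member under every setting, with a black diamond and bar for the main value and its propagated spot error, coloured marks for the settings named in the legend and grey points for the others, and the dashed line at 3-fold lower. The normexp correction moves RRM2 from -2.72 to -1.57, scaling on the median lowers every gene by about the same amount, and SAMHD1 falls on the other side of 0 with its dimmer probe.

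The other genes that feed, sanitize or break down nucleotides were taken from lists of 63 genes, 61 with a ratio measured on both sides and 2 with a bound. Of these, 9 were lower by more than 2-fold, 14.3% against 6.42% of all genes, and 4 were higher, 6.35% against 7.97%. Their median log2 ratio was -0.33, beside the -0.37 of the members.

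Folate supply held 2 of the lower genes (20% of its list, against 6.42% of all genes). MTHFD1, which interconverts one-carbon folates in the cytosol, gave 2570.4 and 784 and a log2 ratio of -1.71 ± 0.20. MTHFD2, its mitochondrial counterpart, gave -1.61 ± 0.06 (SD over 10 spots). Of the serine hydroxymethyltransferases, which load the carbon onto folate, SHMT2 in mitochondria gave -0.75 and SHMT1 in the cytosol gave -0.03, a sign that turned with the normexp correction, without scaling and with the mean over probes. Over the 10 genes of folate supply the median was -0.59, against 0.06 for all measured genes. A ratio below 0 was found for 8 of the 10 (80%), against 45.5% of all measured genes.

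In nucleoside salvage, PNP, which splits purine nucleosides, gave 4814 and 1179 and a log2 ratio of -2.03 ± 0.20. SLC29A2, a nucleoside transporter, was well above background with control siRNA alone, at 23.2, and was at least 2.98-fold lower, while the normexp correction gave a log2 ratio of -0.25. DGUOK, the purine deoxynucleoside kinase of mitochondria, gave -0.39, and DCTD, which turns dCMP into dUMP, gave -0.16. The median over the 10 genes was -0.31.

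Among the genes of breakdown and sanitation, NT5E, the surface enzyme CD73 that makes adenosine from AMP, gave 10619 and 1674 and a log2 ratio of -2.66 ± 0.20, and its dimmer probe gave -1.40 (mean over both probes, -2.03). On the other side, NT5M, a mitochondrial nucleotidase that dephosphorylates dTMP and dUMP, gave 36.4 and 198 and a log2 ratio of 2.44 ± 0.22, which was 1.33 with the normexp correction. DPYD, the first enzyme of pyrimidine base breakdown, gave 91.4 and 230.1 and a log2 ratio of 1.33 ± 0.21, while its dimmer probe was not well above background on either array. The median over the 9 genes was -0.20.

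The nucleotide kinases had a median of 0.01 over 12 genes. Only CMPK2 passed 2-fold, as a higher gene (8.33%, against 7.97% of all genes). CMPK2, a mitochondrial kinase known as an interferon-induced gene, gave 23.9 and 78.3 and a log2 ratio of 1.71 ± 0.23, which was 0.68 with the normexp correction, and its dimmer probe was not well above background on either array. Of de novo pyrimidine synthesis, CTPS1, which makes CTP from UTP, gave 2342 and 492 and a log2 ratio of -2.25 ± 0.20, and its dimmer probe gave -1.60. The median over the 5 genes was -0.47. Of de novo purine synthesis, PAICS gave -1.22 and ADSL -1.06, both enzymes of the inosine monophosphate pathway, and ADSS1, an adenylosuccinate synthase, gave 416 and 1104 and a log2 ratio of 1.41. The median over the 13 genes was -0.42. CCNF, the F-box protein known to target RRM2 for degradation, was well above background with control siRNA alone and was at least 2.38-fold lower, while the normexp correction gave a log2 ratio of -0.29.

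With the normexp correction 8 of these 13 genes were still past 2-fold, and SLC29A2, DPYD, CMPK2, ADSL and CCNF were not. By the smallest difference in log2 ratio over the 1 pair of arrays, the pathway gene nearest to RRM2 was NT5E, that nearest to TK1 was MTHFD2, that nearest to DTYMK was AK6, that nearest to RRM1, DUT and DCK was UMPS, and that nearest to TYMS and SAMHD1 was SLC29A1. The largest of these differences was 0.07. Each is the smallest over 61 genes, so small differences follow from the choice and show no likeness beyond the ratio itself. With the normexp correction MTHFD2, at -1.57, was nearer to RRM2, at -1.57, than NT5E, at -2.58.

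**Figure D5:**
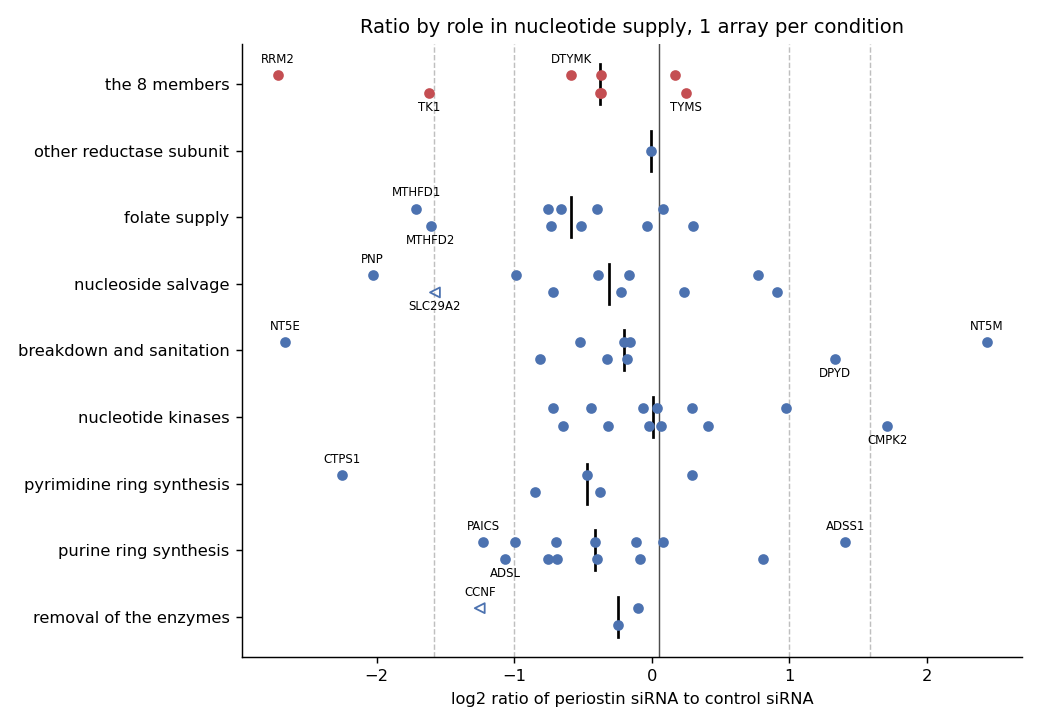
Log2 ratio, periostin siRNA over control siRNA, for the 8 members (red) and the 63 pathway genes (blue) by role, with 1 point per gene, open triangles for ratios that are bounds, black bars at the median of each role, the grey line at the median of all genes and dashed lines at 2-fold and 3-fold. Pathway genes past 2-fold are named, beside 4 of the members, and the named genes lie at both ends of the plot, from RRM2 at -2.72 to NT5M at 2.44.

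Genes that mark S phase and proliferation were lower, as RRM2 and TK1 were, only in part. The list of 13 such genes was chosen with earlier results of these data known, so its counts are a description only. Of the 13 genes, 12 had a ratio below 0, against 45.5% of all measured genes, and the median was -0.52. Of the 12, POLE lay at -0.0028, a sign that turned with the normexp correction and without scaling. By more than 2-fold 4 of the 13 were lower, against 6.42% of all genes, and MCM6 was one of them at -1.07 and not past it with the normexp correction, at -0.98. TOP2A, a topoisomerase of late S phase and mitosis, was the lowest at -4.24, and MKI67 gave -2.03, which were -2.46 and -1.04 with the normexp correction. PCNA, the sliding clamp of replication, was the highest at 0.42, and its other probes gave 0.41 and 0.46. The part of the proliferation of the cells in the values of the members was not tested.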

How the data were processed

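For either array the authors deposited a scanner file, whose intensity values Feature Extraction (11.5.1.1 in the file headers, 12.0.3.1 in the submitters' processing notes) had background-subtracted without scaling between the arrays, and a table of normalized intensity values, which equals the scanner intensity times 3.65 (control siRNA) or 3.54 (periostin siRNA). The array design was annotated on hg19. The normalization behind that table is not given in the sources used here. Its 75th percentiles were 1357.6 (control siRNA) and 1357.2 (periostin siRNA), so it is nearly the same as the main scaling and no separate check of it.

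Processed signals were taken to the log2 scale, and the 75th percentile over 58717 non-control spots of that array, 372 or 383 unscaled, was subtracted. Signals are printed on a common 75th percentile of 377. Spots of a probe were averaged, and the brightest probe stood for a gene. Where 1 array alone had it well above background, the other side was taken as its own signal or the dimmest signal well above background there (unscaled 7.43 or 7.89), whichever was higher, and the fold is a lower bound. Gene names came from RefSeq accessions (GRCh38.p14, used for names and promoters), which matched 65.1% of the spots. Precision is limited by having 2 arrays, and no test was run.

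The members and lists were chosen with earlier results of these data known, and 1 pathway gene is not reported here. Named were the 8 members, POSTN, the pathway genes past 2-fold with RRM2B, TK2, DGUOK, DCTD, SHMT1 and SHMT2, and the lowest and highest context genes; MKI67, MCM6 and POLE were added after their values were seen. The fold of 3 is the one the study used. Alternatives were normexp (offset 50, on median spot brightness), quantile, loess (span 0.3), median, no and bright-spot scaling, the authors' table, and other rules for probes and spots. The pathway and context counts under these settings and the other probes of DUT and SAMHD1 were added after the data were seen. Python 3.11.15, numpy 2.4.6, pandas 2.3.3, matplotlib 3.10.9, R 4.3.3 and limma 3.58.1 were used. The calculation was tested on simulated data.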

Additional observations from a re-analysis of the deposited data

How the results depend on the processing

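No paired analysis was possible because only 1 array was made per siRNA, and no replicate could be left out. Over 12 settings the log2 ratio ranged from -2.85 to -1.57 for RRM2, from -1.75 to -1.58 for TK1, from -0.72 to -0.54 for DTYMK, from -0.51 to -0.26 for DUT, from -0.50 to -0.33 for RRM1, from -0.50 to -0.15 for DCK, from -0.21 to 0.21 for SAMHD1 and from 0.12 to 0.29 for TYMS. RRM2 and TK1 were lower by more than 2-fold in all 12. Both had 1 probe, printed once, so settings that change the choice of probes or spots could not move them. The scaling settings and the authors' table shift all ratios by the same amount. The shared result over the 12 settings is thus no separate check. The normexp correction gave -1.57 for RRM2, -0.15 for DCK and -2.99 for POSTN, and left 1 member lower by more than 3-fold, which was TK1. Without scaling 1 member was past 3-fold as well, which was RRM2. The offset of 50 in the normexp setting pulls ratios of dim probes towards 0 by construction. Under it 6 pathway genes were lower and 2 higher by more than 2-fold, 3 were lower and 0 higher by more than 3-fold, where the main values gave 9 and 4 past 2-fold and 5 and 2 past 3-fold, and the interferon median was 1.20. That median was 1.49 with the mean over probes and with only genes well above background on both arrays. The other probe of SAMHD1 gave -0.21. With scaling on the median, the median over all genes moved by -0.13, and the members by a like amount. It and the normexp correction changed the share of all genes past 2-fold from 6.42% lower and 7.97% higher to 7.86% and 6.58% and to 3.37% and 3.31%. Past 3-fold, 2.75% of all genes were lower and 3.37% higher in the main values. These shares were 1.19% and 0.89% with the normexp correction, and 2.59% and 3.64% without scaling. Of 252 values, 240 stayed within the spot error or within 1.5 times the main count. Many of the 252 could not move, because the setting left the probe and spots of a gene unchanged or nearly repeated the main scaling. The count of 240 is thus no measure of stability.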
